A study of Mus musculus with 12 samples.

Results

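The inhibitory checkpoint receptors described here are 7 genes, Pdcd1 (PD-1), Lag3, Tigit, Ctla4, Btla, Cd160 and Havcr2 (TIM-3), taken by name from the 54532 entries of a gene count table. RNA was sequenced from 12 libraries of sorted mouse CD4 T cells, 3 for each of 4 subsets. All cells were freshly isolated from spleen mixed with lymph node of untreated wild-type C57BL/6 mice that carry a Foxp3-GFP reporter and a polyclonal T cell repertoire. Naive cells were sorted as CD44low. The other subsets were Teff (CD44high, FOXP3-, CD73low, FR4low), Anergic (CD44high, FOXP3-, CD73high, FR4high, NRP1+) and Treg (FOXP3+, CD25+). None of the 7 receptors was used in the sort. Age and sex of the mice were not stated. The labels do not say that the libraries of a subset came from separate mice, so p-values measure the spread between these libraries, which may be technical.

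Inhibitory checkpoint receptors are surface proteins that dampen signalling from the T cell receptor and its co-receptors. T cells gain many of them after antigen contact. PD-1, BTLA and TIGIT recruit phosphatases through motifs in their cytoplasmic tails, CTLA-4 takes the ligands CD80 and CD86 away from the activating receptor CD28, and LAG-3 binds MHC class II. In CD4 T cells, high PD-1, LAG-3 and TIGIT are known from chronically stimulated and unresponsive cells, and CTLA-4 is known as an effector molecule of regulatory T cells.

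Libraries held 6909035 to 9527897 counts, and 13393 genes passed the filter on low counts and were tested. Of the 7 receptors 6 passed it, and Havcr2 did not. Log2 levels correlated across genes at r = 0.982 to 0.987 between libraries of 1 subset and at 0.889 to 0.952 between subsets. Levels are CPM, counts scaled to a common library size by the TMM method, which corrects for a few entries taking much of a library. Sort markers followed the gates, with Foxp3 and Il2ra (CD25) highest in Treg, Izumo1r (FR4), Nt5e (CD73) and Nrp1 higher in Anergic than in Teff (Nrp1 averaged 333 CPM in Anergic and 62.8 CPM in Teff), and Cd44 lowest in Naive cells. Ribosomal and small RNA entries that the total RNA kit retains made up 22.7 to 30.1% of the counts in the Anergic libraries and 18.5 to 21.03% in all others, and mitochondrial ribosomal RNA alone 13.9 to 16.2% against 10.1 to 12.3%. When these entries were removed before the fit, all 36 receptor results kept their direction and their side of the threshold. A gene is called higher or lower at a Benjamini-Hochberg adjusted p under 0.05 over all 13393 genes, from edgeR's quasi-likelihood F test on all 12 libraries (two-sided). The 6 pairwise comparisons share these libraries and are not independent of each other. In sorted bulk samples, fewer cells that express a gene and less RNA of it per cell cannot be told apart.

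The start regions of 4 receptors are shown because these genes had different top subsets, Pdcd1 and Tigit in Anergic cells, Ctla4 in Treg cells and Cd160 in Teff cells. Each run is the 250 bases before the annotated start on the gene's own strand, 5′ to 3′, from RefSeq on GRCm38.p6. For Ctla4 this window lies inside the gene span given further below, which comes from another annotation (GENCODE). Capitals mark the core that NFAT, a transcription factor switched on by T cell receptor signalling, is known to bind (GGAAA on either strand, read as TTTCC on the opposite one). Entries for 6 of the 7 receptors were found in that table, and Lag3 was not matched.
Pdcd1 at chr1:94052554-94052803, minus strand: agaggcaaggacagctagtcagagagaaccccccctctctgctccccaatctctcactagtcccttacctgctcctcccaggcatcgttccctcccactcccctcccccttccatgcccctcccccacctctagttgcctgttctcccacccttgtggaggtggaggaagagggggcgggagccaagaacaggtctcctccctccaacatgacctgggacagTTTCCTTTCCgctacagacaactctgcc
Tigit at chr16:43664185-43664434, minus strand: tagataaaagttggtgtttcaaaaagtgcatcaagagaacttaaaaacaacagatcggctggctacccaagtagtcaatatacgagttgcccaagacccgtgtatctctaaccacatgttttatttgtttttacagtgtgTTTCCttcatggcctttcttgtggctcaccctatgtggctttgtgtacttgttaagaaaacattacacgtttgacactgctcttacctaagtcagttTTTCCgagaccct
Ctla4 at chr1:60908775-60909024, plus strand: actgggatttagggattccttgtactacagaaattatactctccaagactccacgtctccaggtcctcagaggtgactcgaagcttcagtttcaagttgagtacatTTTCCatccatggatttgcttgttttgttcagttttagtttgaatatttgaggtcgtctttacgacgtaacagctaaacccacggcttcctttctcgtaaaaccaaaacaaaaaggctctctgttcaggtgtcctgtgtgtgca
Cd160 at chr3:96829352-96829601, minus strand: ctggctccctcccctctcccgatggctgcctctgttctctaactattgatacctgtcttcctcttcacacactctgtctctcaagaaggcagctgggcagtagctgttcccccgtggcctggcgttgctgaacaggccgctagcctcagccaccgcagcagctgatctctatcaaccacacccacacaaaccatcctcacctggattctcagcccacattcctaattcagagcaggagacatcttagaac

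In Pdcd1 the window held 2 adjacent NFAT cores close to the start, in Tigit it held 2 cores apart from each other, and in Ctla4 it held 1. Neither the Cd160 window shown nor the window of Btla held one, while the window of a second Cd160 start held 1. The core is common, and 55.6% of 32851 RefSeq windows of the same length hold it. The AP-1 motif TGANTCA (either strand), the letters bound by dimers of the FOS, JUN and BATF family, stood in 6.75% of all windows and, among the receptors matched, in the Havcr2 window alone. A composite motif of BATF with IRF transcription factors was also searched and stood in 3.82% of all windows. Among the receptors matched, only the Ctla4 window held it, with 1 match that shared 0 bases with the NFAT core. Neither the NFAT core search nor the AP-1 search considered flanking letters. These 2 motifs overlapped in none of the windows shown, since those held no AP-1 match. These are matches of letters, and binding was not measured here.

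On this scale the receptors did not share 1 pattern across the subsets. Pdcd1, Lag3, Tigit and Btla were highest in Anergic cells, Ctla4 and Havcr2 in Treg cells, and Cd160 in Teff cells. Naive cells held the lowest mean of Pdcd1, Lag3, Tigit, Ctla4, Cd160 and Havcr2, and only Btla was at a high level in them.

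**Figure D1:**
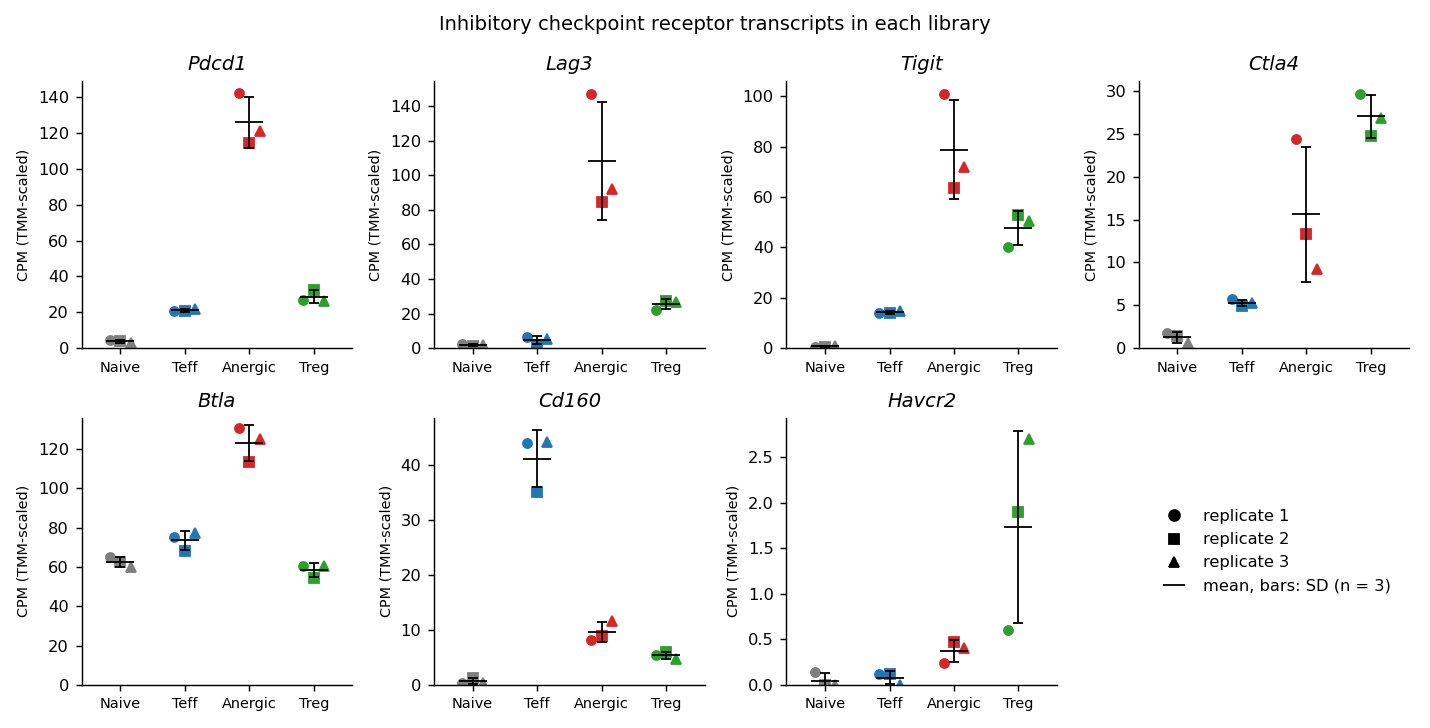
CPM (TMM-scaled) of the 7 receptors in the 12 libraries, by subset, with symbols for libraries 1 to 3, a dash for the mean and bars for the SD (n = 3). Pdcd1, Lag3, Tigit and Btla are highest in Anergic cells, Ctla4 and Havcr2 in Treg cells and Cd160 in Teff cells, and each panel has its own scale from 0.

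Pdcd1 encodes PD-1, the receptor of PD-L1 and PD-L2, and lies on the minus strand of chromosome 1 (94038305 to 94052553, GRCm38). Its level was 4.41, 4.09 and 3.04 CPM in the Naive libraries, 20.5, 20.7 and 21.9 CPM in Teff, 142, 115 and 121 CPM in Anergic and 26.9, 32.7 and 26.2 CPM in Treg. The 3 Anergic libraries stood far above all others, and no library of 1 subset overlapped with those of another. The order was Naive, Teff, Treg, Anergic, and each step was called. The smallest step, Treg over Teff, was 1.35-fold (log2 difference 0.44 ± 0.11 SE, adjusted p = 0.00363). Against Treg cells, Anergic cells had 4.42-fold more (log2 difference 2.14 ± 0.095 SE, adjusted p = 1.39e-14). Teff cells, which had been CD44high like the Anergic cells, were 5.41-fold above Naive cells (log2 difference 2.44 ± 0.16 SE, adjusted p = 1.47e-11).

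Lag3, a CD4-related receptor that binds MHC class II, lies on the minus strand of chromosome 6 (124904361 to 124911705). It was measured at 2.62, 1.24 and 1.82 CPM in Naive, 6.49, 1.98 and 5.48 CPM in Teff, 147, 84.7 and 92.2 CPM in Anergic and 22.03, 27.4 and 26.6 CPM in Treg. Anergic libraries were high and Treg libraries intermediate, without overlap, while Teff library 2 lay among the Naive ones. Anergic exceeded Teff 23.04-fold (log2 difference 4.53 ± 0.23 SE, adjusted p = 1.97e-13), the widest gap of the 6 tested receptors in that comparison. Treg exceeded Teff as well, 5.37-fold (log2 difference 2.43 ± 0.26 SE, adjusted p = 9.16e-08), and Anergic exceeded Treg 4.29-fold (log2 difference 2.10 ± 0.18 SE, adjusted p = 1.54e-09). At the low end, the 2.49-fold step from Naive to Teff was called (adjusted p = 0.0265), but the call rested on 41 and 115 counts per subset. It was lost without Teff library 1 (adjusted p = 0.155), Teff library 3 (0.0817), Naive library 2 (0.129) or Naive library 3 (0.0663), and with limma voom (0.195).

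Tigit, which binds CD155 (encoded by Pvr) and related nectins, lies on the minus strand of chromosome 16 (43648867 to 43664146). Levels were 0.414, 0.620 and 0.911 CPM in Naive, 13.8, 14.005 and 14.7 CPM in Teff, 101, 63.5 and 71.9 CPM in Anergic and 40.1, 52.8 and 50.4 CPM in Treg. The libraries of the 4 subsets did not overlap, and the order Naive, Teff, Treg, Anergic was that of Pdcd1 and Lag3. The top step differed in size, with Anergic 1.66-fold over Treg (log2 difference 0.73 ± 0.13 SE, adjusted p = 6.53e-05). Without Anergic library 1 this step was 1.42-fold (adjusted p = 0.000603). Naive cells held only 14 Tigit counts in all, so the 121-fold step from Naive to Anergic rests on few reads at its low end. Teff cells stood 21.6-fold over Naive cells (log2 difference 4.44 ± 0.34 SE, adjusted p = 1.86e-10).

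Ctla4, on the plus strand of chromosome 1 (60887000 to 60915832), encodes the receptor that competes with CD28. It was at 1.79, 1.36 and 0.607 CPM in Naive, 5.68, 4.96 and 5.23 CPM in Teff, 24.3, 13.3 and 9.185 CPM in Anergic and 29.7, 24.7 and 26.8 CPM in Treg. Anergic libraries spread widely between the Teff and the Treg libraries, and Anergic library 1 came close to the lowest Treg library. Treg cells exceeded Teff cells 5.11-fold (log2 difference 2.35 ± 0.24 SE, adjusted p = 4.14e-08) and Naive cells 21.02-fold (log2 difference 4.39 ± 0.32 SE, adjusted p = 8.52e-11). Anergic cells had 2.96-fold more than Teff cells (log2 difference 1.57 ± 0.26 SE, adjusted p = 4.5e-05) and 1.73-fold less than Treg cells (log2 difference -0.79 ± 0.21 SE, adjusted p = 0.0053). The call between Anergic and Treg was lost with DESeq2 (adjusted p = 0.0821). Without Anergic library 1 the gap to Treg was 2.40-fold (adjusted p = 4.15e-06), and without Anergic library 3 it was 1.44-fold (adjusted p = 0.0386).

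Btla and Cd160 encode receptors that share 1 ligand, HVEM (Tnfrsf14), and their patterns were unlike each other. Btla, on the plus strand of chromosome 16 (45224315 to 45257670), was at 64.9, 62.6 and 60.1 CPM in Naive, 75.5, 68.04 and 77.1 CPM in Teff, 131, 113 and 125 CPM in Anergic and 60.6, 54.2 and 60.7 CPM in Treg. Anergic libraries were the highest and did not overlap with the rest, while the Treg and Naive libraries overlapped. Anergic cells exceeded Naive cells 1.97-fold (log2 difference 0.98 ± 0.074 SE, adjusted p = 9.93e-11), Treg cells 2.10-fold (log2 difference 1.07 ± 0.074 SE, adjusted p = 3.3e-11) and Teff cells 1.67-fold (log2 difference 0.74 ± 0.073 SE, adjusted p = 1.95e-08). Treg and Naive cells were not told apart (log2 difference -0.095 ± 0.078 SE, adjusted p = 0.391). The 1.18-fold step from Naive to Teff (adjusted p = 0.0200) was lost without Teff library 1 (0.0517), Teff library 3 (0.0879), Naive library 2 (0.0542) or Naive library 3 (0.0750).

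Cd160, on the minus strand of chromosome 3 (96798763 to 96829351), encodes a receptor best known from NK cells and cytotoxic T cells. It was at 0.276, 1.24 and 0.304 CPM in Naive, 44.1, 35.2 and 44.2 CPM in Teff, 8.23, 8.92 and 11.7 CPM in Anergic and 5.46, 5.95 and 4.70 CPM in Treg. Teff libraries stood alone at the top, and no subsets overlapped. Treg cells were 7.66-fold below Teff cells (log2 difference -2.94 ± 0.17 SE, adjusted p = 2.33e-12), and Anergic cells lay 1.78-fold above Treg cells (log2 difference 0.83 ± 0.20 SE, adjusted p = 0.00241). Naive cells held 14 Cd160 counts, 10 of them in library 2. Teff exceeded Naive 63.1-fold with that library and 135-fold without it, Anergic exceeded Naive 14.7-fold with it and 31.5-fold without it, and Treg exceeded Naive 8.24-fold with it and 17.7-fold without it, all of them called both ways. A stretch of 2.57% of the Cd160 exons overlaps exons of Pdzk1 on the other strand, and reads there could belong to either gene if strand was not used in counting.

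The Teff libraries also held transcripts typical of other lymphocytes beside Cd160. The 8 markers of NK and innate-like T cells summed to 193 to 258 CPM in Teff, 23.9 to 36.2 CPM in Anergic, 3.45 to 5.70 CPM in Naive and 0.941 to 1.52 CPM in Treg. Of these 8 markers, 0 or 1 were at 0 counts in a Teff library, 1 or 2 in an Anergic library, 4 to 6 in a Naive library and 3 to 6 in a Treg library. The 5 gamma delta T cell markers summed to 35.8 to 38.5 CPM in Teff and 12.7 to 21.03 CPM in Anergic, against 2.73 to 4.96 CPM in Naive and 4.75 to 8.23 CPM in Treg. At most 1 of the 5 was at 0 in any Teff, Anergic or Treg library. The genes Tcrg-C1, Tcrg-C2 and Tcrg-C4 carried the Teff sum, while Trdc, the delta chain constant gene, had its lowest mean in Teff (2.34 CPM, against 3.38 CPM in Naive, 5.12 CPM in Anergic and 3.98 CPM in Treg). Of the 4 tested, 1 was higher and 3 were lower in Anergic than in Teff cells (26.6% of all genes called). CD8 T cell markers were lower in Teff (3.71 to 6.25 CPM, 2 markers) than in Naive libraries (12.6 to 17.1 CPM). The part of these cells in the Cd160 level was not tested.

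Havcr2, on the plus strand of chromosome 11 (46454935 to 46481255), encodes TIM-3, a receptor of late T cell dysfunction. It had 1, 0 and 0 counts in the Naive libraries, 1, 1 and 0 in Teff, 2, 4 and 3 in Anergic and 6, 15 and 23 in Treg. All Treg libraries were above all others, though the counts were few. Pooled over a subset, Treg cells had 1.67 CPM (exact 95% interval 1.22 to 2.25), Anergic cells 0.367 CPM (0.168 to 0.696), Teff cells 0.0815 CPM (0.00987 to 0.294) and Naive cells 0.0456 CPM (0.00116 to 0.254). Anergic against Treg was a ratio of 0.219 (0.0941 to 0.455), and Anergic against Teff was 4.50 (0.932 to 42.8). The interval of Anergic against Teff includes 1, so a difference was not detectable at this depth. These intervals cover counting error only and not the spread between libraries.

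Counts of receptors called were set beside the share of all tested genes called. Between Anergic and Teff cells, 6 of the 6 tested receptors were called, 5 higher and 1 lower in Anergic, where 26.6% of all genes were called (13.9% higher and 12.7% lower). Scaling by total counts alone changes that background from 1864 higher and 1702 lower genes to 1218 higher and 2276 lower ones, and it turned no receptor's direction. Cd160 was the 1 lower receptor.

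Between Anergic and Treg cells, 6 of 6 were called, 5 higher in Anergic and Ctla4 lower, with 31% of all genes called (15.6% higher and 15.3% lower). Here the background was 2096 higher and 2054 lower genes, or 1324 and 3027 under scaling by total counts. All 6 tested receptors were higher in Anergic than in Naive cells, where 46.2% of genes were called (25% higher), and all 6 were higher in Teff than in Naive cells, where 34.9% were called (19.2% higher). Treg cells differed from Naive cells in 5 of 6, all higher, with 32.8% of genes called (19% higher), and Btla was the receptor not called. That background was 2538 higher and 1858 lower genes, or 2925 and 1126 under scaling by total counts. Tigit, Cd160 and Ctla4, with 14, 14 and 28 Naive counts in all, passed the filter through the other subsets. For these receptors the direction against Naive cells was partly fixed by the filter. Between Treg and Teff cells, 6 of 6 were called, with Pdcd1, Lag3, Tigit and Ctla4 higher in Treg and Btla and Cd160 lower, against 29.1% of genes called (15% higher and 14.1% lower).

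Median log2 differences of the 6 tested receptors were 2.02 for Anergic over Teff, 0.95 for Anergic over Treg, 4.45 for Anergic over Naive, 2.24 for Teff over Naive, 3.39 for Treg over Naive and 1.09 for Treg over Teff. Over all genes tested the same medians were between 8.0e-05 and 0.0079. TMM scaling itself places the typical gene near 0, so these medians are no independent background. Scaling by total counts shifted the median gene by -0.13 (Anergic over Treg) to 0.083 (Treg over Naive). A receptor absent from every subset could not enter the receptor medians, since it would not pass the filter.

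**Figure D2:**
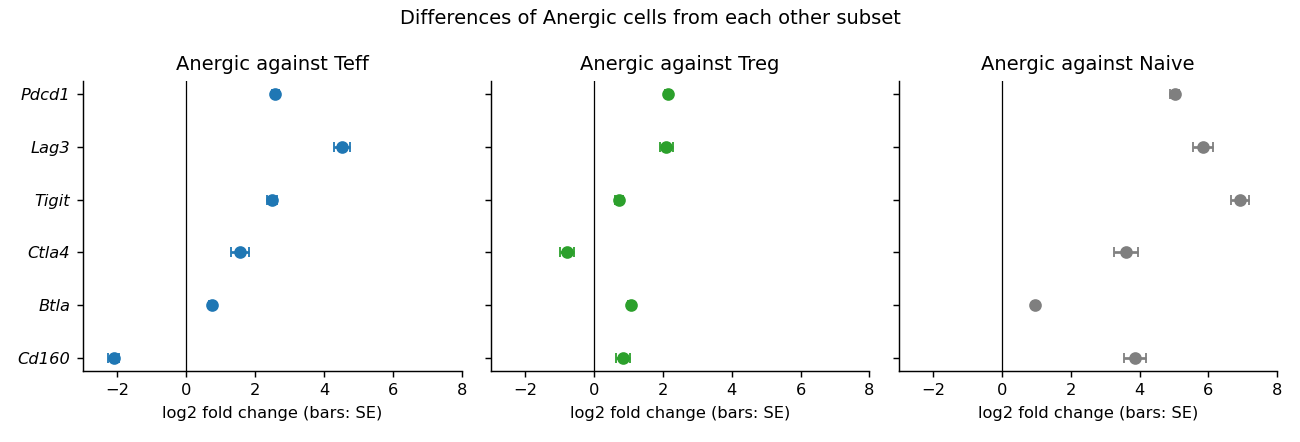
Log2 fold change (x axis) of the 6 tested receptors in Anergic cells against Teff, Treg and Naive cells, with bars for the SE of the fit on 12 libraries. Cd160 lies below 0 only against Teff cells (-2.10) and Ctla4 only against Treg cells (-0.79), while the other points lie above 0.

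Levels of different genes can be compared only per length, so CPM were divided by the exon length of each gene in kilobases. In Naive cells Btla was at 18.4 ± 0.712 CPM per kilobase (SD, n = 3) and made up 80.8% of the summed level of the 7 receptors, followed by Pdcd1 with 8.74%. In Teff cells Btla (21.7 ± 1.43 CPM per kilobase), Cd160 (15.6 ± 1.96), Tigit (15.4 ± 0.490) and Pdcd1 (10.9 ± 0.396) led, and Cd160 and Tigit differed by less than their SD. In Anergic cells Tigit (85.8 ± 21.4) and Pdcd1 (65.2 ± 7.43) led, with ranges of 69.1 to 109.9 and 59.4 to 73.6 that overlap. Lag3 (51.2 ± 16.2) and Btla (36.3 ± 2.64) followed there. Treg cells were led by Tigit (52.01 ± 7.35), which made up 47.1% of their sum. Next in Treg came Btla (17.2 ± 1.09) and Pdcd1 (14.8 ± 1.84), with overlapping ranges, and then Lag3 (12.01 ± 1.37) and Ctla4 (11.6 ± 1.08), which differed by less than their SD.

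Ctla4 was higher in Treg cells than in any other subset, and within Treg cells it ranked the fifth of the 7 receptors per length, with 10.5% of the sum. The summed level of all 7 receptors was 22.8 ± 1.26 CPM per kilobase in Naive, 68.06 ± 4.93 in Teff, 249 ± 49.9 in Anergic and 110.3 ± 8.37 in Treg. The lowest Anergic library (211 CPM per kilobase) was above the highest Treg library (117). Exon length from an annotation can differ from the transcripts present, which sets a limit on these comparisons between genes.

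**Figure D3:**
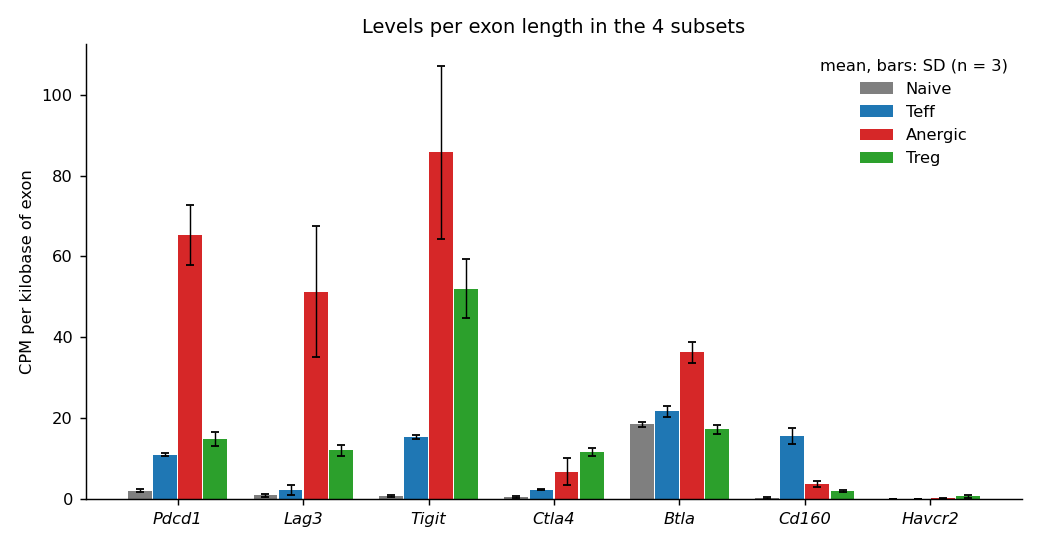
Mean CPM per kilobase of exon (bars from 0, error bars SD, n = 3) of each receptor in the 4 subsets. Btla dominates in Naive cells (18.4), Tigit leads in Anergic (85.8) and Treg cells (52.01), and Havcr2 is near 0 in all subsets.

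Anergic library 1 held the highest Anergic level of Pdcd1, Lag3, Tigit, Ctla4 and Btla, and the lowest of Cd160. Its log2 deviation from the Anergic mean was 0.75 for Ctla4, 0.49 for Lag3, 0.39 for Tigit and 0.18 for Pdcd1, and -0.20 for Cd160. Without it Anergic still exceeded Teff 18.7-fold for Lag3, 4.75-fold for Tigit, 5.57-fold for Pdcd1 and 2.12-fold for Ctla4, all called. Foxp3, the defining transcription factor of Treg cells, was at 20.3, 15.03 and 19.3 CPM in the Anergic libraries and at 538, 531 and 562 CPM in Treg. Il2ra, which encodes the CD25 of the Treg sort, was at 11.3, 13.9 and 20.6 CPM in Anergic and 706, 663 and 761 CPM in Treg. Within the Anergic subset, library 1, with the highest Ctla4, had the highest Foxp3 and the lowest Il2ra. The part of Treg cells in the Anergic Ctla4 level was not tested.

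**Figure D4:**
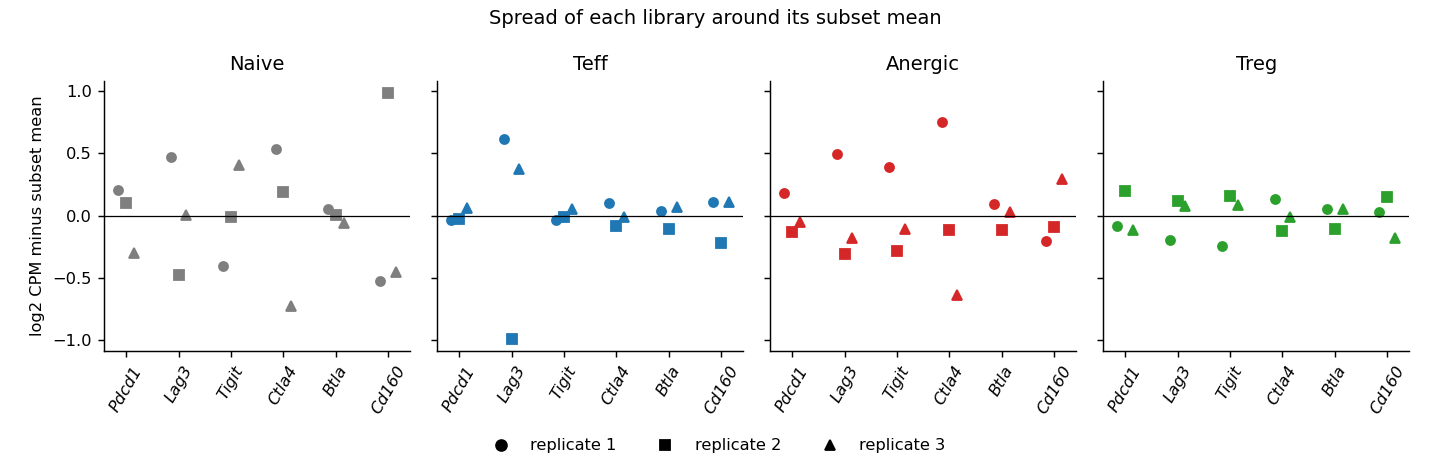
Log2 CPM of each library minus the mean of its subset (y axis) for the 6 tested receptors, in 1 panel per subset with symbols for libraries 1 to 3. In the Anergic panel library 1 is above 0 for 5 receptors, most for Ctla4 (0.75), and below 0 for Cd160 (-0.20).

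Follicular helper T cells are known for high PD-1 and BTLA, and most of their markers were higher in Anergic cells. Of 10 markers 8 were tested. Anergic cells had 7 higher and 0 lower than Teff, 7 higher and 1 lower than Treg, and 7 higher and 1 lower than Naive. The shares of all genes called there were 26.6%, 31% and 46.2%. Elsewhere 6 were higher and 1 lower in Teff than in Naive (34.9% of all genes called). In Treg 4 were higher and 1 lower than in Naive (32.8%). Set against Teff, Treg cells had 1 higher and 5 lower (29.1%), and there Pdcd1 was higher and Btla lower. Cxcr5, the receptor that guides these cells to B cell follicles, averaged 129.7 CPM in Anergic, 56.5 CPM in Teff, 45.2 CPM in Treg and 3.84 CPM in Naive cells. The 10 markers summed to 592 to 659 CPM in Anergic libraries, 305 to 325 CPM in Teff, 330 to 355 CPM in Naive and 326 to 350 CPM in Treg. Il6ra was the largest term of this sum and, unlike the other markers, had its highest mean in Naive cells. Its means were 292 CPM in Naive, 142 CPM in Teff, 175 CPM in Anergic and 219.8 CPM in Treg. None of the 10 was at 0 in an Anergic library, while 1 to 3 were at 0 in each library of the other subsets. Some of these markers (Icos, Sh2d1a, Tox2 and Bcl6) also stand in the gene lists below. The part of follicular helper cells in the Pdcd1 and Btla levels was not tested. B cell markers, 8 in number, summed to 220 to 283 CPM in Anergic, 180 to 197 CPM in Teff, 198 to 227 CPM in Naive and 408 to 499 CPM in Treg libraries. Most of that sum was Ighm (means of 209 CPM in Anergic and 443 CPM in Treg), while Cd22 was at 27.9 CPM in Anergic and 2.87 CPM in Treg. Of the 4 B cell markers tested, Anergic cells had 2 above and 2 below Treg cells (31% of all genes called). When Anergic cells were set against Teff, 3 were higher and 0 lower (26.6%).

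Transcripts of several ligands of the receptors were measured in the T cells themselves. Of 17 listed ligands and ligand partners 13 could be tested, and 3 were higher and 4 lower when Anergic cells were compared with Teff cells, where 26.6% of all genes were called. Tnfrsf14, which encodes HVEM, the ligand of BTLA and CD160, was at 53.2, 45.8 and 38.9 CPM in Anergic and 25.05, 29.1 and 28.7 CPM in Teff. That is a 1.67-fold rise without overlap (log2 difference 0.74 ± 0.11 SE, adjusted p = 7.61e-06), and Naive cells at 38.9, 34.1 and 41.7 CPM overlapped with the Anergic range. Tnfsf14 (LIGHT), another partner of HVEM, was at 32.9, 31.1 and 37.7 CPM in Anergic, 49.3, 51.1 and 42.8 CPM in Teff and 3.33, 2.03 and 2.00 CPM in Treg. Its drop from Anergic to Treg cells was 13.5-fold (log2 difference of Anergic over Treg 3.75 ± 0.17 SE, adjusted p = 1.92e-14).

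Ligands of CTLA-4 and PD-1 were found at low to moderate levels. Cd274, which encodes PD-L1, averaged 54.5 CPM in Anergic, 50.9 CPM in Treg, 38.0 CPM in Teff and 23.7 CPM in Naive cells. Cd80 was at 3.88, 1.29 and 4.13 CPM in Anergic and 3.64, 3.42 and 4.12 CPM in Treg, against 0.348, 0.124 and 0.382 CPM in Teff. Anergic exceeded Teff 10.3-fold (log2 difference 3.36 ± 0.55 SE, adjusted p = 3.96e-05). Cd86, the other ligand of CTLA-4 and CD28, went with Treg cells, at 15.8, 15.5 and 15.4 CPM against 5.65, 5.40 and 7.59 CPM in Anergic cells, a 2.51-fold gap (log2 difference of Anergic over Treg -1.33 ± 0.17 SE, adjusted p = 1.58e-06). Lgals3, which encodes galectin-3, a ligand of LAG-3, was 6.08-fold lower in Treg than in Teff cells (adjusted p = 4.64e-05), and Hmgb1, a ligand of TIM-3, was 1.22-fold lower in Treg than in Naive cells (adjusted p = 0.00679). Pdcd1lg2, which encodes PD-L2, was 17.6-fold higher in Anergic than in Naive cells (log2 difference 4.13 ± 0.32 SE, adjusted p = 1.6e-10), and Teff (12.8-fold) and Treg cells (13.5-fold) were also above Naive cells. Pvr, the ligand shared by TIGIT and the activating receptor CD226, was lowest in Anergic cells, at 25.6, 27.8 and 26.9 CPM, and highest in Naive cells, at 47.7, 51.5 and 49.02 CPM (log2 difference -0.89 ± 0.083 SE, adjusted p = 3.93e-09).

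Some activating receptors use the same ligands as the inhibitory ones and compete with them. The list of activating receptors also holds Icos, whose own ligand is not among the ligands listed. Cd226, the activating competitor of TIGIT, was at 153, 148 and 143 CPM in Teff, 51.4, 68.6 and 67.4 CPM in Anergic, 39.9, 34.7 and 40.8 CPM in Treg and 31.6, 32.3 and 30.8 CPM in Naive. Teff libraries were far above the rest, so that Tigit was higher and Cd226 2.37-fold lower in Anergic than in Teff cells (log2 difference of Cd226 -1.24 ± 0.085 SE, adjusted p = 3.72e-11). Between Treg and Teff cells the pair also moved in opposite directions. Tigit was 3.36-fold higher and Cd226 3.83-fold lower in Treg (adjusted p = 1.85e-09 and 1.63e-14). In the remaining comparisons, Anergic over Treg and each of Anergic, Teff and Treg over Naive, both genes were higher. Cd28, the activating counterpart of CTLA-4, was at 25.5, 18.1 and 21.8 CPM in Anergic and 11.1, 10.01 and 9.99 CPM in Treg, so it was 2.10-fold higher in Anergic cells (log2 difference 1.07 ± 0.14 SE, adjusted p = 1.7e-06) where Ctla4 was lower. Icos rose 1.69-fold from Teff to Anergic cells (adjusted p = 0.000684) and Cd4, which like LAG-3 binds MHC class II, 1.87-fold (adjusted p = 1.79e-10). Against Teff cells, 3 of the 4 genes of this list were higher in Anergic cells and Cd226 was lower (26.6% of all genes called). All 4 were higher in Anergic than in Treg (31%) and than in Naive cells (46.2%).

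Phosphatases and adaptors through which inhibitory receptors signal numbered 17, all tested. In Anergic cells 6 stood above and 4 below Teff, 6 were higher and 4 lower than in Treg, and 8 higher and 2 lower than in Naive cells, where 26.6%, 31% and 46.2% of all genes were called. Ptpn11, which encodes SHP-2, the phosphatase that PD-1 recruits, was at 428, 373 and 345 CPM in Anergic, 130, 111 and 116 CPM in Teff, 87.0, 80.7 and 84.5 CPM in Treg and 78.5, 79.7 and 79.4 CPM in Naive libraries. Like Pdcd1 it was highest in Anergic cells without overlap, 3.20-fold over Teff (log2 difference 1.68 ± 0.076 SE, adjusted p = 2.15e-14) and 4.54-fold over Treg (log2 difference 2.18 ± 0.078 SE, adjusted p = 2.78e-16). Ptpn22, a phosphatase of proximal T cell receptor kinases, was at 352, 307 and 322 CPM in Anergic and 147, 145 and 134 CPM in Treg cells (2.31-fold, adjusted p = 3e-12).

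Others of these signalling genes were lower in Anergic cells. Dok2, an adaptor that restrains RAS signalling, was at 39.99, 40.7 and 40.1 CPM in Anergic and 86.9, 90.8 and 93.3 CPM in Teff libraries, 2.24-fold lower (log2 difference -1.16 ± 0.075 SE, adjusted p = 1.37e-11). Pag1, which anchors the inhibitory kinase CSK, was at 61.4, 79.7 and 72.02 CPM in Anergic, 150, 140 and 133 CPM in Teff and 171, 183 and 162 CPM in Naive libraries. It was 1.98-fold lower in Anergic than in Teff (adjusted p = 7.49e-10) and 2.42-fold lower than in Naive cells (adjusted p = 2.64e-12). Inpp5d (SHIP-1) was 1.25-fold lower in Anergic than in Treg cells (adjusted p = 0.000189), and Ptpn2, a phosphatase of cytokine signalling, 1.17-fold lower in Anergic than in Naive cells (adjusted p = 0.0435). Fyn, a kinase of proximal T cell receptor signalling, was 1.35-fold higher in Anergic than in Teff cells (adjusted p = 1.97e-05). Between Treg and Teff cells Ubash3a and Ubash3b, which encode phosphatases of the STS family, were 1.20-fold and 1.35-fold higher in Treg (adjusted p = 0.00364 and 0.00112), and Lck was 1.18-fold lower in Treg than in Naive cells (adjusted p = 0.00347).

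Proteins that move CTLA-4 within the cell or cut LAG-3 from its surface made a list of 8, all tested, of which 2 were higher and 3 lower in Anergic cells when set against Teff cells (26.6% of all genes called). Adam10, a protease that sheds LAG-3, was at 179, 199 and 219 CPM in Anergic and 119, 128 and 116 CPM in Teff. It was 1.64-fold higher in Anergic cells without overlap (log2 difference 0.72 ± 0.072 SE, adjusted p = 2.97e-08), in the same direction as Lag3. Trat1 (TRIM), an adaptor that carries CTLA-4 to the surface, was at 10.1, 23.2 and 23.96 CPM in Anergic, 46.4, 60.2 and 67.2 CPM in Teff and 43.5, 49.5 and 49.4 CPM in Treg. Its drop was 3.04-fold against Teff (log2 difference -1.61 ± 0.18 SE, adjusted p = 1.24e-07), and the lowest library, Anergic 1, was the one with the most Ctla4. Lrba, which protects CTLA-4 from degradation, was 1.44-fold higher in Treg than in Naive cells (adjusted p = 1.99e-05) and 1.35-fold higher in Anergic than in Teff cells (adjusted p = 0.000221). Def6, which works with RAB11 in CTLA-4 transport, was 1.34-fold lower in Anergic than in Teff cells (adjusted p = 8.45e-06), and Ap1m1, a clathrin adaptor subunit, was 1.34-fold lower in Anergic than in Treg cells (adjusted p = 6.03e-05). Adam17, another protease that sheds LAG-3, was 1.31-fold higher in Teff than in Naive cells (adjusted p = 0.000797).

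**Figure D5:**
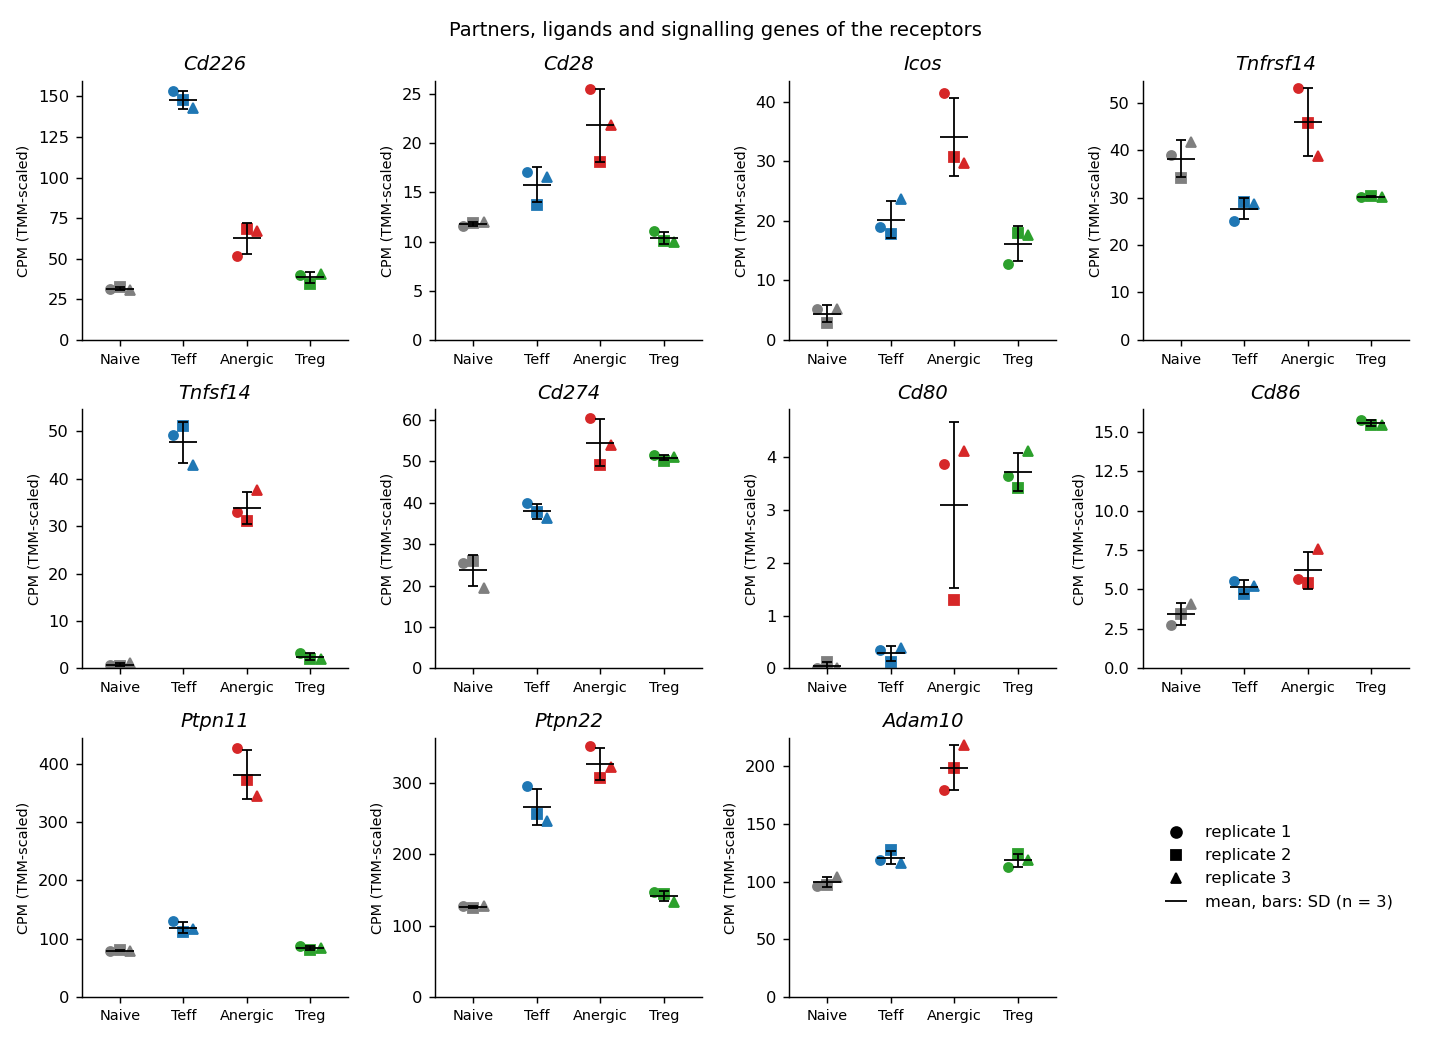
CPM (TMM-scaled) of 11 ligands, activating receptors, phosphatases and the protease Adam10 in the 12 libraries, with dashes for the mean and bars for the SD (n = 3), each panel from 0. Cd226 is highest in Teff cells, Cd86 in Treg cells, and Ptpn11 and Adam10 in Anergic cells.

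Transcription factors known to act at checkpoint receptor genes formed a list of 22, of which 21 were tested. In Anergic cells 14 were higher and 4 lower than in Teff, 11 higher and 6 lower than in Treg, and 16 higher and 4 lower than in Naive cells (26.6%, 31% and 46.2% of all genes called). Nfatc1, the NFAT member induced by T cell receptor signalling, was at 743, 645 and 646.5 CPM in Anergic against 214, 231 and 226 CPM in Treg (3.04-fold, log2 difference 1.60 ± 0.073 SE, adjusted p = 2.11e-14). Batf was at 67.5, 57.4 and 58.6 CPM in Anergic and 30.7, 47.0 and 35.3 CPM in Treg libraries, 1.64-fold higher in Anergic cells without overlap (log2 difference 0.71 ± 0.11 SE, adjusted p = 2.46e-05). Maf rose 31.8-fold from Naive to Anergic cells (log2 difference 4.99 ± 0.099 SE, adjusted p = 2.03e-21). Tbx21, which encodes T-bet, a repressor of Pdcd1 in chronic infection, was at 117, 118 and 115 CPM in Teff and at 38.7, 28.9 and 29.7 CPM in Anergic. It was thus 3.598-fold lower in Anergic cells (log2 difference -1.85 ± 0.13 SE, adjusted p = 4.42e-11). Pdcd1 went the other way in that comparison, while from Naive to Teff cells both rose, Tbx21 by a log2 difference of 7.39 ± 0.24 SE (adjusted p = 2.73e-17). Foxo1 was lower in Anergic than in Naive cells by 2.17-fold (log2 difference -1.12 ± 0.064 SE, adjusted p = 4.55e-13). Tox, known from exhausted T cells, was at 216, 184 and 199 CPM in Anergic and 59.5, 48.1 and 48.8 CPM in Teff libraries, without overlap (adjusted p = 6.86e-15). Ikzf2 (Helios) was 6.32-fold higher in Treg than in Teff cells (adjusted p = 1.28e-15), Tcf7 (TCF-1) 2.82-fold higher in Anergic than in Treg cells (adjusted p = 7.64e-15), and Nr4a1, an early target of T cell receptor signalling, 1.47-fold lower in Anergic than in Naive cells (adjusted p = 1.57e-06).

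Other inhibitory receptors of T cells were a list of 20, of which 14 were tested. In Anergic cells 4 were higher and 4 lower than in Teff, 3 higher and 6 lower than in Treg, and 8 higher and 4 lower than in Naive cells (26.6%, 31% and 46.2% of all genes called). Cd200, a ligand of an inhibitory receptor that sits on the T cell itself, followed the order of Pdcd1, with 4.69, 5.95 and 5.31 CPM in Naive, 12.9, 14.1 and 14.5 CPM in Teff, 29.4, 33.2 and 25.6 CPM in Treg and 65.9, 66.5 and 71.1 CPM in Anergic libraries. Klrc1 (NKG2A), an inhibitory receptor of NK cells, was at 23.4, 24.2 and 22.2 CPM in Teff and at 0.118, 0.587 and 0.266 CPM in Anergic cells, so it was high where Cd160 was high. Its count was 0 in every Naive and Treg library.

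Several other inhibitory receptors did not follow Pdcd1. Cd72 was at 3.18, 3.17 and 3.46 CPM in Anergic libraries, below 16.8, 15.7 and 16.7 CPM in Teff (5.01-fold, adjusted p = 3.94e-11) and below 18.2, 16.2 and 17.6 CPM in Treg (5.30-fold, adjusted p = 1.43e-11). Exons of Tesk1 on the other strand overlap 41.6% of the Cd72 exon sequence. Reads there could belong to either gene if strand was not used in counting. Cd22 was 9.81-fold higher in Anergic than in Treg cells (adjusted p = 1.15e-11), and it is also one of the B cell markers. Cd5, which tracks the strength of T cell receptor signalling, was 1.38-fold higher in Anergic than in Teff cells (adjusted p = 1.11e-05). Cd101 was highest in Treg cells, 2.65-fold over Teff (adjusted p = 2.42e-09), and Lair1, a receptor for collagens, was 6.15-fold lower in Treg than in Teff cells (adjusted p = 1.16e-08). Pecam1 was 1.55-fold lower in Anergic than in Naive cells (adjusted p = 2.23e-08), and Vsir (VISTA) 1.15-fold lower in Teff than in Naive cells (adjusted p = 0.0128).

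The lists were counted in the remaining comparisons too, where the share of all genes called was 31% for Anergic against Treg, 46.2% for Anergic against Naive, 34.9% for Teff against Naive, 32.8% for Treg against Naive and 29.1% for Treg against Teff. Ligands had 5 higher and 3 lower genes in Anergic against Treg, 9 and 1 in Anergic against Naive, 7 and 2 in Teff against Naive, 7 and 3 in Treg against Naive, and 3 and 3 in Treg against Teff. Activating receptors had 3 higher and 0 lower in Teff against Naive, 2 and 1 in Treg against Naive, and 0 and 3 in Treg against Teff. For the trafficking and shedding list the counts were 1 and 3 in Anergic against Treg, 5 and 3 in Anergic against Naive, 3 and 0 in Teff against Naive, 4 and 1 in Treg against Naive, and 1 and 1 in Treg against Teff.

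The trafficking list in Treg against Teff, with 2 called of 8, was near the share of all genes. Phosphatases and adaptors, 17 in all, had 7 higher and 1 lower in Teff against Naive (34.9% of all genes called), 6 and 3 in Treg against Naive (32.8%), and 2 and 6 in Treg against Teff (29.1%). Transcription factors had 11 and 4, 14 and 2, and 10 and 7 in these 3 comparisons, and other inhibitory receptors 9 and 2, 10 and 3, and 6 and 4.

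For each tested receptor, the genes with the most similar pattern were sought among 10613 genes by the root mean square of the differences in log2 CPM over the 12 libraries, after the mean of each gene was removed. Pdcd1 was nearest to Tbc1d4 (0.190), Alcam (0.257) and Synpo (0.305), where the median candidate was at 1.77. Tbc1d4 averaged 16.8 CPM in Naive, 89.02 in Teff, 425 in Anergic and 119.9 in Treg cells, in the order of Pdcd1. Lag3 was nearest to Tshz2 (0.423), Ptpn5 (0.534) and Sccpdh (0.555), with a median candidate at 2.25. Tigit was nearest to Nrp1 (0.367), a gene that the Anergic sort selected on, then Myo1e (0.504) and Cybb (0.528), with a median of 2.52.

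Nearest to Ctla4 were Rgs9 (0.475), Dusp4 (0.551) and Nol4l (0.558), with a median of 1.67. Btla was nearest to Tle3 (0.0901), Ctdsp2 (0.115) and Zap70 (0.117) with a median of 0.499. For Cd160, Mical2 (0.425) and Emp1 (0.483) were among the nearest, with a median of 2.11. Mical2 averaged 14.5 CPM in Teff and 3.24 CPM in Anergic cells. Among the receptors themselves Pdcd1 and Lag3 were the closest pair (0.940) and Lag3 and Cd160 the farthest (2.60). These distances describe 12 libraries that share a sort and a preparation and have no test.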

How the data were processed

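RNA from 12 libraries of sorted mouse CD4 T cells was analysed. A QIAGEN RNeasy kit and a stranded Takara SMARTer total RNA kit were used, per the labels' protocols. The authors deposited raw read counts for each gene, without normalisation, with trimming, alignment and counting by Trimmomatic, HISAT2, SAMtools and featureCounts, and edgeR afterwards, as the series design text says. The submitters' processing notes name GRCm38 (mm10) as genome build and, among the tools, deepTools 3.5.1.0.1. Which annotation and strand setting featureCounts used was not stated. Columns were matched to samples by subset name and number.

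Tests used edgeR 4.0.16 and R 4.3.3 (quasi-likelihood F test, TMM scaling, filterByExpr with a minimum count of 10, subset means over all 12 libraries, Benjamini-Hochberg over 13393 genes, threshold 0.05). The SE of a log2 difference was taken as its absolute value over the root of F. Gene positions and exon lengths came from GENCODE M21 (GRCm38). Replicate counts varied beyond Poisson noise (chi-square over degrees of freedom 2.24 to 23.0), and edgeR's common biological coefficient of variation came to 0.0764. The fitting code was checked on simulated data.

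The 7 receptors, the 6 gene lists of partners and the marker lists were chosen with earlier results of these data known. All receptors are named, and from each partner list up to 2 higher and 2 lower genes with the smallest adjusted p per comparison, each named in at least 1 comparison that picked it. Genes given for their similarity are the 3 nearest by the measure stated (log2 CPM with a prior count of 2), without predicted, RIKEN, ribosomal, mitochondrial and pseudogene names. The values of 1 of these and of 1 B cell marker are not reported here. Further marker lists were sort markers, T cell identity (5097 to 5384 CPM summed in Anergic and 3456 to 4214 CPM in other libraries) and myeloid and dendritic cell (3.64 to 11.8 CPM). Batf is always named. Foxp3 and Il2ra beside Ctla4, and Cd274 beside Pdcd1lg2, were chosen after their values were seen.

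Alternatives tried were DESeq2 1.42.0, limma 3.58.1 voom, DESeq2 size factors, total counts, a minimum of 5 CPM in 3 libraries, omission of the filter, models of the compared subsets alone, a replicate block, leaving out single libraries, and removal of abundant ribosomal and small RNA entries.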

Additional observations from a re-analysis of the deposited data

How the results depend on the processing

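Of 756 recomputed comparisons of the 6 tested receptors, 746 kept direction and call, 10 lost the call and 0 reversed. The lost calls were Lag3 and Btla in Teff against Naive and Ctla4 in Anergic against Treg, with the values given above. Across all settings the receptors called numbered 6 to 6 for Anergic against Teff, 5 to 7 against Treg and 6 to 6 against Naive, 4 to 6 for Teff and 5 to 6 for Treg against Naive, and 6 to 7 for Treg against Teff, where 7 includes Havcr2 in the fit with no filter. With lengths of the longest transcript, Ctla4 was at 2.74 CPM per kilobase in Teff and 14.01 in Treg, where it passed Lag3, and Btla at 19.2 in Naive. The labels do not say what replicate numbers share. Same-numbered libraries deviated together at r = -0.0485 to 0.184 (median 0.0652, 4 of 18 pairs over 0.1), against a median of -0.0437 for other pairs, and 10 of 12 libraries correlated best with their own number, a hint from the data of a weak pairing that does not establish one. With a replicate block the genes called were 3987 (Anergic against Teff), 4610 (Treg) and 6548 (Naive), 5077 for Teff and 4796 for Treg against Naive, and 4343 for Treg against Teff, and receptor counts stayed at 6, 6, 6, 6, 5 and 6. Scaling by total counts shifted the median gene by -0.10 for Anergic against Teff and -0.13 against Treg (log2). Depth limits Havcr2 everywhere, and Tigit, Cd160, Ctla4 and Lag3 in Naive cells, where they had 14, 14, 28 and 41 counts.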
